A study of Rattus norvegicus with 7 samples.

Results

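The genes described here make, desaturate and lengthen fatty acids: Acaca, Fasn, Scd, Fads2, Elovl1, Elovl2, Elovl4, Elovl5, Elovl6 and Elovl7. They were taken by symbol from the 2 expression tables, and all 10 were found among the 16153 symbols used of the hippocampus table. The hypothalamus table gave 9 of the 10 among 16163 symbols. Elovl1 was not analysed there. Transcripts were measured by poly-A RNA sequencing in male Sprague Dawley rats aged 2 months at the start, fed a diet with docosahexaenoic acid (DHA), a long omega-3 chain abundant in brain, for 6 weeks. Hippocampus gave 4 libraries and hypothalamus gave 3. Every library came from a DHA-fed rat, and no chow-fed library was analysed here, so nothing below measures an effect of the diet. The labels do not say which libraries share an animal or whether tissue was pooled, so an SD given here measures the spread between libraries, which may be technical.

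Fatty acid synthesis starts with the carboxylase encoded by Acaca, which turns acetyl-CoA into malonyl-CoA. The synthase encoded by Fasn then builds palmitate from it. ELOVL6 lengthens palmitate to stearate, and stearoyl-CoA desaturase places the double bond that makes oleate, a main fatty acid of myelin. Polyunsaturated fatty acids, which animals derive from dietary precursors, pass through the desaturase encoded by Fads2 and the elongases ELOVL5 and ELOVL2 on the way to DHA. ELOVL1, ELOVL4 and ELOVL7 act on long or very long chains. Transcription of many of these genes is known to fall in liver when polyunsaturated fatty acids are abundant, through sterol regulatory element binding proteins (SREBPs).

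The 3 members with the highest levels were the same in all 7 libraries, in the order Scd, Fads2 and Elovl5. Their promoters are shown because these genes hold most of the summed FPKM of the members. The sequences are RefSeq windows of the GRCr8 assembly, from 250 bases before to 50 bases after the annotated start, and are printed 5′ to 3′ on the strand of the gene. They are chr1:253118127-253118426 on the plus strand for Scd, whose current symbol is Scd2, chr1:216171984-216172283 on the minus strand for Fads2 and chr8:87670914-87671213 on the plus strand for Elovl5. Capitals mark matches, on either strand, to 3 motifs that were found here: CCAAT, bound by NF-Y, GGGCGG, a GC box, and CACGTG, an E-box.
Scd: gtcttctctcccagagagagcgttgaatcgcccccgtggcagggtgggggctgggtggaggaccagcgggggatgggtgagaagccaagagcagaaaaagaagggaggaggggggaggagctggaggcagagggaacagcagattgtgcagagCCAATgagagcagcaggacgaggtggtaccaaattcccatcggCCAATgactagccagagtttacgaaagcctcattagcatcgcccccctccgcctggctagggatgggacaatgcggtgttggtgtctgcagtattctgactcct
Fads2: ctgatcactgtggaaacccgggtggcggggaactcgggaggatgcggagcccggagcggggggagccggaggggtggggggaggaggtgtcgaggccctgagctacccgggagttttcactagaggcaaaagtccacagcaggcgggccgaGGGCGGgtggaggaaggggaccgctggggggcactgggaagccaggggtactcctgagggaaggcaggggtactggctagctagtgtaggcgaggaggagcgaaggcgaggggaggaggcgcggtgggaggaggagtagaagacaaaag
Elovl5: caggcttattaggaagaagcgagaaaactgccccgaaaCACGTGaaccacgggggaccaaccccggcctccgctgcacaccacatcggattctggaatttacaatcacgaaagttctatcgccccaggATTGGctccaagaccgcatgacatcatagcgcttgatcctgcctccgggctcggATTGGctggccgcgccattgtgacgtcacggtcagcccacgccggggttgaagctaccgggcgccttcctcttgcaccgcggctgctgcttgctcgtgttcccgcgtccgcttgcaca
The Scd and Elovl5 windows each held 2 CCAAT matches, those of Elovl5 on the opposite strand and so read as ATTGG, and Elovl5 also held 1 E-box. Fads2 held 1 GC box and no CCAAT in these 300 bases. Over all 33469 windows of this length, 37.5% held CCAAT, 33.1% held GGGCGG and 6.42% held CACGTG. A sterol regulatory element written as TCACNCCAC matched 1.12% of all windows and none of the 8 windows available for 7 members. Elovl4 held 1 CCAAT match and 1 GC box, and the first of the 2 Elovl2 windows held 7 GC boxes at a GC content of 84.7%. A match is a description of letters, and no binding was measured.

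Levels are given in FPKM, fragments scaled by transcript length and by library size, as the authors deposited them. The deposited FPKM of the loci used summed to 363950 to 384523 in hippocampus libraries and to 442119 to 470001 in hypothalamus libraries, and sequencing depth was not known. Markers of each region were high in the libraries labelled with it. The summed FPKM of Neurod6, Slc17a7, Itpka and Wfs1 was 927 to 1323 in hippocampus and 18.3 to 24.6 in hypothalamus, and that of Avp, Oxt, Hcrt, Pmch, Pomc and Cartpt was 7.58 to 12.1 against 5948 to 8516. In hippocampus, 5 choroid plexus genes summed to 127 FPKM in replicate 2 and to 2599 to 6672 FPKM in the other libraries.

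For the comparison of tissues, the 15805 symbols shared by the tables were scaled to add up to 1000000 in every library. A gene was called separated when its values in the tissues did not overlap. Each tissue is a table of its own, so tissue and table cannot be told apart and no test was made across them. In addition, 4 against 3 libraries cannot give an exact two-sided permutation p below 0.0571. Symbols had to average 1 FPKM or more in a tissue to be compared. Of the 10736 that did, 52.6% were separated, 24.4% with hypothalamus higher and 28.2% with hippocampus higher. Of the 8 members compared, Acaca, Fasn and Fads2 were separated, each higher in hypothalamus. No member was higher in every hippocampus library. The member count of 3 of 8 (37.5%) lies below the share of all symbols that were separated, and the 3 of 8 with hypothalamus higher stand beside 24.4%. In FPKM as deposited the same 3 of 8 stand beside 35.2% of all symbols, a share close to theirs. The median log2 difference, hypothalamus minus hippocampus, was 0.20 over the 8 members and −0.05 over all symbols compared. A separation with at least a 2-fold difference was reached by 27.9% of symbols and by 0 members. All log2 values here are of log2(value + 1), which understates the change of low genes. In bulk tissue, more cells of a type and more RNA per cell cannot be told apart.

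**Figure D1:**
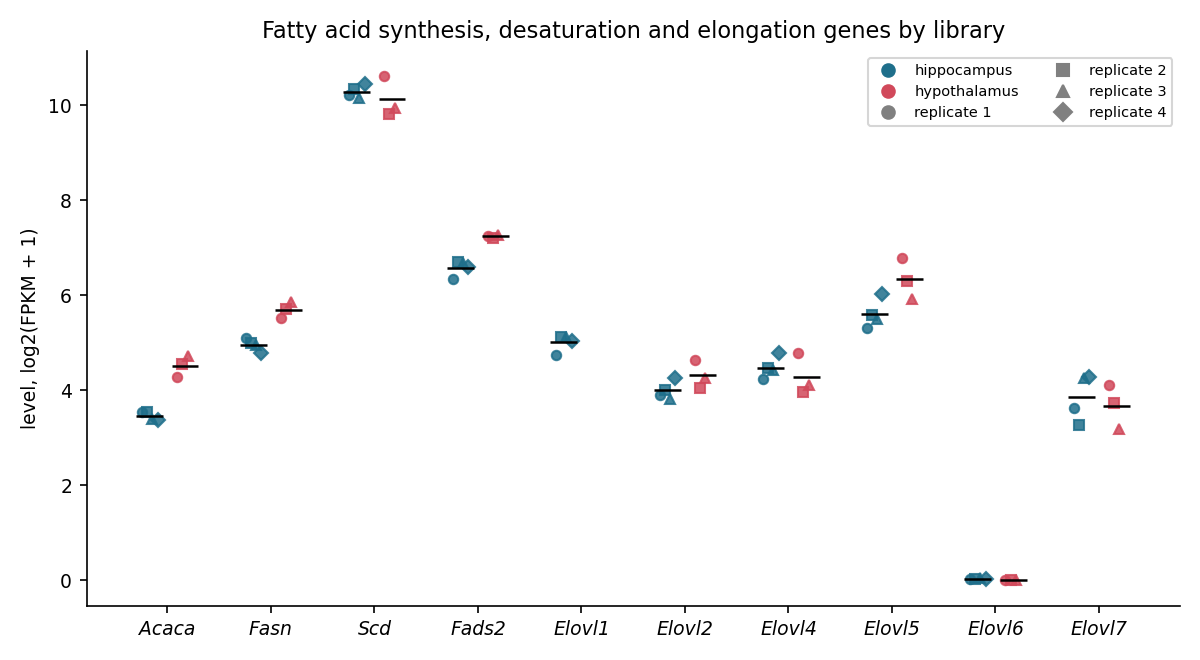
Level of each gene in each library, as log2(FPKM + 1) on the vertical axis, with marker shape for the replicate, colour for the tissue and a black line at the tissue mean. Acaca, Fasn and Fads2 of all 3 hypothalamus libraries lie above those of the 4 hippocampus libraries, while Elovl6 lies at or near 0 throughout.

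Acaca, the gene of the committing step of synthesis, read 10.6, 10.7, 9.52 and 9.40 FPKM in hippocampus replicates 1 to 4 and 18.5, 22.5 and 25.3 FPKM in hypothalamus replicates 1 to 3. The hippocampus libraries lay within 1.14-fold of each other, and the lowest hypothalamus library was clear of all of them. Means were 10.1 ± 0.689 FPKM (SD, n = 4) and 22.1 ± 3.39 FPKM (SD, n = 3). After rescaling, hypothalamus was higher by 0.81 on the log2 scale, or 1.75-fold, which was the largest difference among the 8 members.

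Fasn, the synthase gene, read 33.1, 30.7, 30.0 and 26.7 FPKM in hippocampus and 45.1, 51.7 and 56.8 FPKM in hypothalamus. The tissues again did not overlap. The rescaled difference was 0.46 on the log2 scale (1.37-fold). The ratio of Fasn to Acaca within a library does not depend on how libraries are scaled, and it was 2.84 to 3.15 in hippocampus and 2.24 to 2.43 in hypothalamus. Both genes were thus higher in hypothalamus, Acaca more so than Fasn, with no overlap in their ratio. Among all pairs of symbols above 0 in every library, 54.2% had a ratio that separated the tissues.

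Fads2, the first desaturase of polyunsaturated synthesis, read 80.4, 104, 101 and 96.1 FPKM in hippocampus and 150, 146 and 154 FPKM in hypothalamus. Its hypothalamus libraries agreed to within 1.05-fold, and the SD of their log2 values, 0.04, was at percentile 2.05 among hypothalamic loci. The rescaled difference was 0.36 on the log2 scale (1.28-fold). Beside these 3 genes, the summed level of 7 oligodendrocyte markers, which include the myelin genes Mbp and Mobp, was 11665 to 15580 in the rescaled hypothalamus libraries and 8794 to 9381 in hippocampus, although 2 of the 7 genes separated the tissues in each direction. The summed level of 4 neuron markers was 2010 to 2421 in hypothalamus and 4171 to 6703 in hippocampus, and all 4 were higher in every hippocampus library. The summed level of 7 astrocyte markers overlapped, at 2719 to 3928 against 3714 to 4301, but its genes did not move together. Aqp4, Aldh1l1 and Gjb6 were higher in every hypothalamus library, at 1.19, 1.30 and 1.23 on the log2 scale, Slc1a2, the most abundant of the 7 in hippocampus, was higher in every hippocampus library, at −1.89, and the median of the 7 was 0.40. The summed level of 4 endothelial markers was 117 to 184 in hypothalamus and 246 to 376 in hippocampus, with 2 of the 4, Cldn5 and Flt1, higher in every hippocampus library. The part of cell composition in the 3 differences was not tested.

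Scd was the most abundant member. The gene is listed in both tables beside a separate Scd1, and the RefSeq gene table of GRCr8 gives Scd as an older name of Scd2 and Scd1 as an older name of the gene now called Scd. Scd here is therefore read as Scd2, the stearoyl-CoA desaturase known as the main form of rodent brain. Its higher locus, placed between Abcc2 and Wnt8b in the row order, read 1188, 1290, 1131 and 1387 FPKM in hippocampus and 1564, 901 and 974 FPKM in hypothalamus. Hypothalamus replicate 1 was above every hippocampus library, and replicates 2 and 3 were below all of them, so the tissues overlapped. The rescaled difference was −0.46 on the log2 scale. Without hypothalamus replicate 1, Scd was separated with hippocampus higher, at −0.72, in a setting where 66.2% of all symbols were separated.

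A second locus carries the symbol Scd, between Pkd2l1 and Scd1 in the row order. In hippocampus it read 3.64, 20.2, 4.80 and 901 FPKM, and in hypothalamus 1.50, 385 and 296 FPKM. Hippocampus replicate 4 and hypothalamus replicates 2 and 3 thus had 296 FPKM or more there and the other 4 libraries had 20.2 FPKM or less. With the loci summed, Scd read 1192, 1310, 1135 and 2288 FPKM in hippocampus and 1566, 1287 and 1270 FPKM in hypothalamus, and the rescaled difference was −0.32. Summing brought the hypothalamus SD from 364 to 166 FPKM and raised that of hippocampus from 113 to 543 FPKM. Without hippocampus replicate 4 the summed hippocampal mean went from 1481 to 1212 FPKM. Scd has close paralogs on the same chromosome, among them Scd1, named for that reason, which read 9.80 to 17.1 FPKM in hippocampus and 5.51 to 9.05 FPKM in hypothalamus, so the split of fragments between these loci is uncertain.

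**Figure D2:**
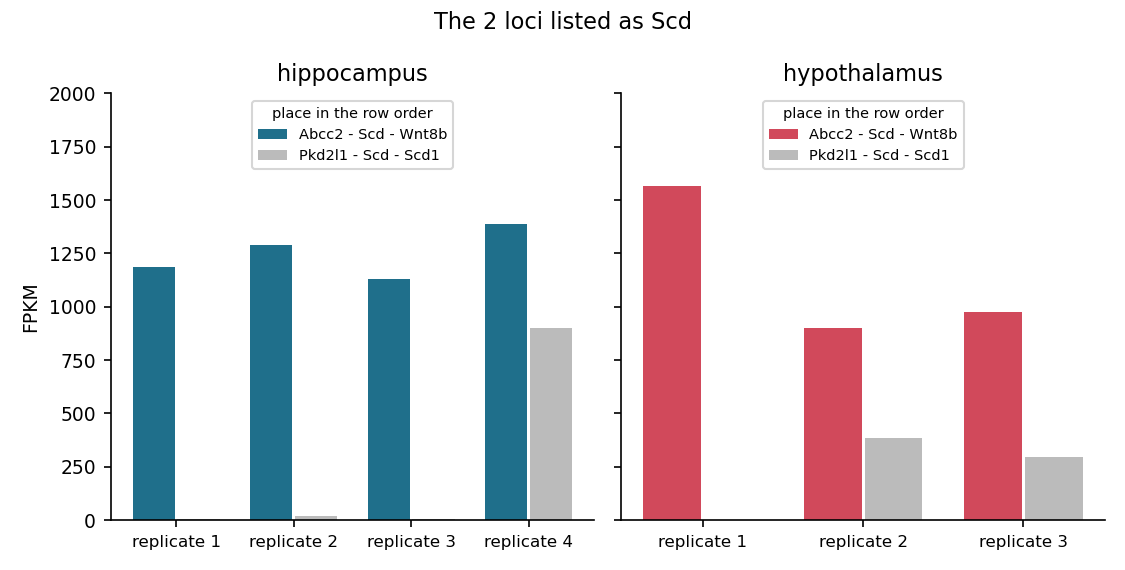
FPKM of the 2 loci named Scd in each library, with bars from 0 and the neighbouring symbols in the row order as the key. The coloured locus is high in all 7 libraries, while the grey one reaches 901 FPKM in hippocampus replicate 4 and 385 and 296 FPKM in hypothalamus replicates 2 and 3.

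The elongases of polyunsaturated chains overlapped between the tissues. Elovl5, which acts early on these chains, read 38.7, 47.2, 44.2 and 64.0 FPKM in hippocampus and 109, 78.2 and 59.7 FPKM in hypothalamus. Only hippocampus replicate 4 exceeded a hypothalamus library as deposited, and the rescaled difference of 0.44 became a separation without hippocampus replicate 4, at 0.58, or without hypothalamus replicate 3, at 0.68, and was 0.21 without hypothalamus replicate 1 and 0.11 without replicate 1 of both tissues. Elovl2, which acts later in the same chain and is needed for DHA synthesis, read 14.0, 15.0, 13.2 and 18.1 FPKM in hippocampus and 23.9, 15.6 and 18.0 FPKM in hypothalamus. Its rescaled difference of 0.04 was the smallest among the members in size and fell below 0 in 3 of the alternatives, to −0.17 without replicate 1 of both tissues.

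Elovl4, which makes very long chains including polyunsaturated ones, read 17.8, 21.0, 20.4 and 26.5 FPKM in hippocampus and 26.5, 14.7 and 16.3 FPKM in hypothalamus. The highest library of each tissue thus stood at 26.5 FPKM, and the rescaled difference was −0.48. Without hypothalamus replicate 1, hippocampus was higher in every library, at −0.75. Relative to Elovl5 in the same library, Elovl4 stood at 0.414 to 0.463 in hippocampus and at 0.188 to 0.274 in hypothalamus. Relative to Elovl2 it stood at 1.27 to 1.55 and 0.904 to 1.11. Elovl4 was therefore the higher of Elovl4 and Elovl2 in all 4 hippocampus libraries and in 1 of 3 hypothalamus libraries. Of 8 such ratios between members computed, 5 separated the tissues (62.5% beside 54.2% of all pairs): those already named, Scd to Fasn and Fads2 to Scd. The ratios of Fads2, of Elovl2 and of Fasn with Elovl5 overlapped.

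The elongases of saturated chains were lower than Elovl5. Elovl1, measured in hippocampus only, read 25.9, 33.7, 34.0 and 31.7 FPKM (31.3 ± 3.76, SD, n = 4), which overlapped with Fasn. Elovl7 read 11.3, 8.71, 18.1 and 18.5 FPKM in hippocampus and 16.3, 12.4 and 8.10 FPKM in hypothalamus. It varied most among the 8 members compared, with a spread of 2.12-fold over the hippocampus libraries, and its log2 SD of 0.49 was at percentile 87 of hippocampal loci. Its lowest hippocampus value fell in replicate 2, the library with the least choroid plexus signal. Whether the 2 are connected was not tested.

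Elovl6, the elongase gene that hands stearate to the desaturase, was at the edge of detection. It has 2 loci in each table. In hippocampus they read 0.0160, 0.0164, 0.0325 and 0.0283 FPKM and 0.0160, 0.0328, 0.0108 and 0.0283 FPKM, and in hypothalamus both were listed at 0 in all 3 libraries. If the lowest value of hippocampus replicate 2 is 1 fragment, and fragment worths are taken from the spacing of low values over all loci, replicates 3 and 4 held 2.997 and 2.000 fragments at that locus, and replicates 2 to 4 held 2.000, 0.9991 and 2.000 at the other. These are at or below a floor of 3 fragments, so no fold is given. Low listings in these tables are no measure of absence: Hprt1, a housekeeping gene chosen for this check after its values were seen, was at most 0.0403 FPKM at both of its hypothalamic loci, and Gapdh, chosen likewise, read 4.03 to 8.73 FPKM in hippocampus and 418 to 787 FPKM in hypothalamus.

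**Figure D3:**
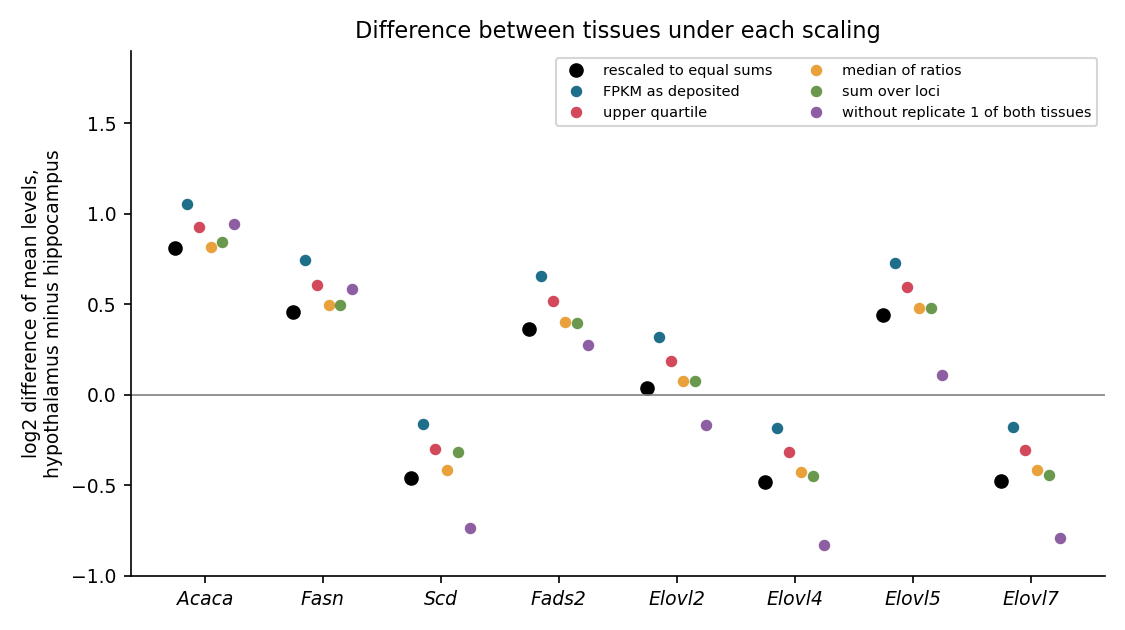
Difference of mean log2 levels, hypothalamus minus hippocampus, for the 8 genes compared, under 4 scalings, with loci summed and without replicate 1 of both tissues. Acaca, Fasn and Fads2 stay above 0 and Scd, Elovl4 and Elovl7 below 0 under all 6 settings drawn, and Elovl2 falls on both sides.

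Ordered by mean FPKM, hippocampus read Scd, Fads2, Elovl5, Elovl1, Fasn, Elovl4, Elovl2, Elovl7, Acaca and Elovl6. Hypothalamus read Scd, Fads2, Elovl5, Fasn, Acaca, Elovl2, Elovl4, Elovl7 and Elovl6. The library ranges of neighbours overlapped for Elovl1 and Fasn, Elovl4 and Elovl2, Elovl2 and Elovl7, and Elovl7 and Acaca in hippocampus, and for Acaca and Elovl2, Elovl2 and Elovl4, and Elovl4 and Elovl7 in hypothalamus. At its higher locus, Scd exceeded Fads2 by 11.2-fold to 14.8-fold in hippocampus and by 6.18-fold to 10.4-fold in hypothalamus. With the Scd loci summed, the ratio of Fads2 to Scd in hippocampus replicate 4 went from 0.0693 to 0.0420. Of the FPKM summed over the 9 members in both tables, each at its highest locus, Scd took 84.2% ± 1.05 (SD, n = 4) in hippocampus and 75.6% ± 3.96 (SD, n = 3) in hypothalamus. Fads2 took 6.44% ± 0.774 and 10.4% ± 2.35. These shares did not overlap between the tissues, at 82.7% to 85.2% against 72.6% to 80.1% for Scd and 5.77% to 7.37% against 7.67% to 11.7% for Fads2. Nor did those of Acaca, Elovl2 and Elovl5, each higher in hypothalamus. With loci summed, Scd took 82.8% to 89.8% in hippocampus and 79.0% to 80.1% in hypothalamus. Fads2 then took 3.77% to 7.34% and 7.66% to 9.57%, and the shares of Elovl2 overlapped. Since shares add up to a whole, a lower share of Scd raises the others.

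Within each tissue, the same 5 members were highest in a single library. Scd, Elovl2, Elovl4, Elovl5 and Elovl7 all peaked in hippocampus replicate 4 and in hypothalamus replicate 1, whereas Acaca and Fasn were lowest in both of those libraries. Of all symbols compared, 32.4% were highest in hippocampus replicate 4, 44.2% in hypothalamus replicate 1 and 21.7% in both, and 35.7% and 35.5% were lowest in those libraries. The share lowest in both was not computed, and these libraries were picked for the members that peaked there. Elovl5 lay 0.42 above its tissue mean in hippocampus replicate 4 and 0.44 above it in hypothalamus replicate 1 on the log2 scale, while Fasn lay at −0.16 and −0.17. The median of all genes lay at −0.02 and 0.03 in these libraries, on values that are already scaled per library and centred on the tissue mean. The oligodendrocyte sum was 3113 FPKM in hippocampus replicate 4, inside the 3010 to 3339 FPKM of the other libraries. It was lowest of its tissue in hypothalamus replicate 1, at 4899 FPKM. Its genes were split. In hippocampus replicate 4, Mog, Ermn and Cldn11 were highest and Mag and Cnp lowest. In hypothalamus replicate 1, Mog, Cnp and Ermn were highest and Mbp, Mobp, Mag and Cldn11 lowest. The neuron sum was highest of its tissue in both of these libraries, at 2339 and 1017 FPKM, the latter against 843 and 1005 FPKM. Its genes did not move together. Syt1 and Stmn2 were highest in both, but Rbfox3 was lowest in both, at 57.9 and 49.1 FPKM. Snap25 was highest in hippocampus replicate 4 and lowest in hypothalamus replicate 1. The astrocyte sum was highest in hippocampus replicate 4, at 1501 FPKM, and inside the others in hypothalamus replicate 1, at 1356 FPKM. In the former, Slc1a2, Aqp4 and Gja1 were highest and Gfap, Aldh1l1 and Slc1a3 lowest. The part of these markers in the pattern was not tested.

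**Figure D4:**
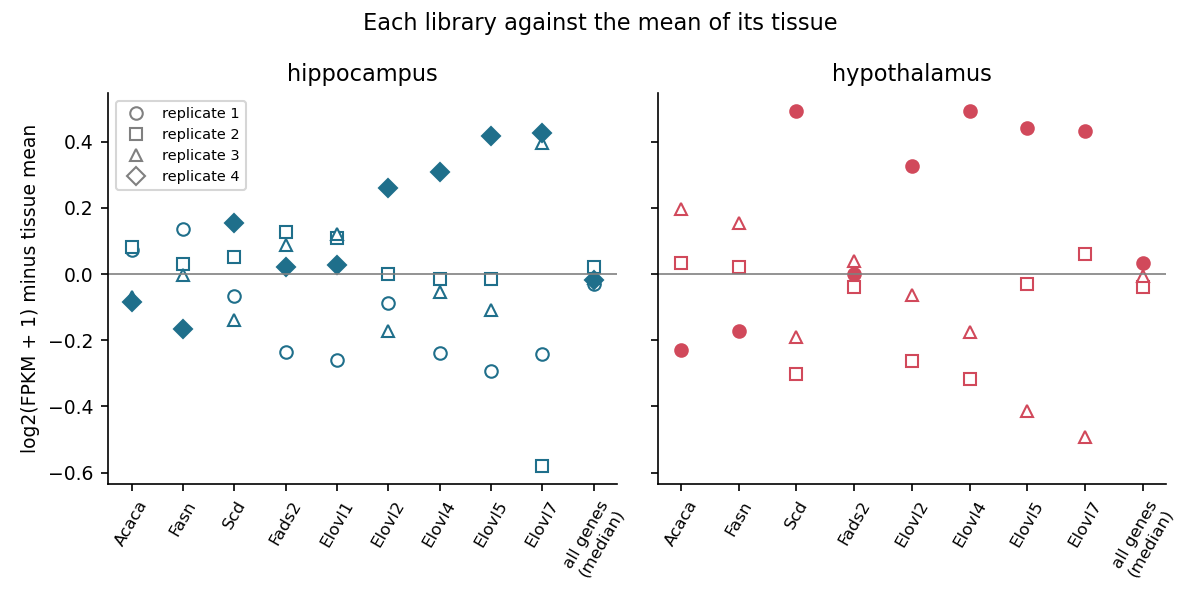
Deviation of each library from its tissue mean, in log2(FPKM + 1), for each gene averaging 1 FPKM or more and for the median of all genes, with filled markers for hippocampus replicate 4 and hypothalamus replicate 1. In both panels the filled markers are the highest for Scd, Elovl2, Elovl4, Elovl5 and Elovl7 and the lowest for Acaca and Fasn.

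Other genes of the pathway were taken from a list of 42, of which 33 were found in both tables with usable values and 30 were compared. Of these 30, 9 were higher in every hypothalamus library and 8 in every hippocampus library, so that 56.7% were separated, beside 52.6% of all symbols. Their median log2 difference was 0.07. In FPKM as deposited the counts were 11 and 6, a hypothalamic share of 64.7% in place of 52.9%, and over all symbols that share went from 46.4% to 64.9%. When the difference also had to reach 2-fold, hypothalamus was higher for 6 of the 30, beside 13.4% of all symbols, and hippocampus for 5, beside 14.5%.

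Of 6 suppliers of synthesis, 3 were separated with hypothalamus higher, beside 24.4% of all symbols, 1 with hippocampus higher, beside 28.2%, and 2 overlapped. Mid1ip1, whose product promotes assembly of acetyl-CoA carboxylase, read 69.2, 103 and 121 FPKM in hypothalamus and 27.9, 17.4, 17.2 and 13.4 FPKM in hippocampus, a rescaled difference of 2.05 on the log2 scale. Its relative Thrsp went the other way, with 21.2, 13.9 and 13.0 FPKM in hypothalamus and 49.3, 29.5, 30.9 and 25.9 FPKM in hippocampus (−1.34). Slc25a1, the mitochondrial citrate carrier that exports carbon for acetyl-CoA, read 57.6 to 61.0 FPKM against 15.2 to 25.9 FPKM (1.14). Mid1ip1 and Thrsp, whose products are close relatives, were thus separated in opposite directions.

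Of 5 desaturases and electron carriers compared, 2 were higher in every hypothalamus library, beside 24.4% of all symbols, 2 in every hippocampus library, beside 28.2%, and Cyb5b overlapped. Cyb5a, cytochrome b5, read 108 to 128 FPKM in hypothalamus and 37.8 to 50.8 FPKM in hippocampus (1.09), and Cyb5r3, its reductase, read 54.5 to 105 FPKM against 20.6 to 26.2 FPKM (1.55). Fads6, a little-studied relative of the desaturases, was higher in hippocampus, at 20.3 to 28.7 FPKM against 11.2 to 14.2 FPKM (−1.18), and so was Scd1 (−0.97). Of the 4 genes compared in the elongation cycle, Hacd1, a dehydratase gene named after its values were seen, was separated after rescaling, with hypothalamus higher at 0.72. This is 1 of 4 beside 52.6% of all symbols, and none reached 2-fold, beside 27.9%. Hsd17b12, named likewise, overlapped after rescaling (0.38) but not in FPKM as deposited, at 45.1 to 58.0 FPKM in hippocampus and 67.9 to 118 FPKM in hypothalamus. Tecr, the reductase that closes each cycle, was the most abundant of these 4 and overlapped, at 89.1 to 129 FPKM in hippocampus and 125 to 204 FPKM in hypothalamus (0.31). Without hypothalamus replicate 1 Tecr was separated with hypothalamus higher, at 0.48, where 66.2% of all symbols were separated. The same held without replicate 1 of both tissues, at 0.58, where 74.0% were.

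Of 9 regulators compared, 2 were higher in every hypothalamus library, 3 were higher in every hippocampus library and 4, namely Insig1, Insig2, Nr1h3 and Mlxipl, overlapped, so that 55.6% were separated, beside 52.6% of all symbols. Srebf2, the SREBP gene known mainly for cholesterol synthesis, read 119, 116, 97.5 and 186 FPKM in hippocampus and 41.9, 56.5 and 71.8 FPKM in hypothalamus (−1.48). Mbtps2, a protease gene that releases SREBPs from the membrane, was also higher in hippocampus, at 5.48 to 10.4 FPKM against 3.41 to 4.13 FPKM (−1.20). Nr1h2, the gene of liver X receptor beta, was higher in hypothalamus, at 29.3 to 62.9 FPKM against at most 18.2 FPKM in hippocampus (1.37). Srebf1 and Fads1 were not analysed here.

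Mitochondrial fatty acid synthesis runs on an acyl carrier protein of its own. Of 6 genes compared in this group, which also holds a thioesterase below the minimum level, 1 was higher in every hypothalamus library, 2 in every hippocampus library and 3 overlapped. These 50% separated stand beside 52.6% of all symbols, 24.4% with hypothalamus higher and 28.2% with hippocampus higher. The carrier's gene, Ndufab1, which also encodes a subunit of respiratory complex I, was the most abundant gene of the list, with 577 to 685 FPKM in hypothalamus and 148 to 201 FPKM in hippocampus (1.59). Hsd17b8, which pairs with Cbr4 in a reductase of that pathway, read 34.6, 21.1, 24.4 and 16.9 FPKM in hippocampus and 1.93, 2.20 and 3.06 FPKM in hypothalamus, a difference of −3.39 that was the largest in the list. Large gaps between the tables also occurred in the housekeeping genes Gapdh, given above, and Ppia. Ppia read 4.77 to 7.37 FPKM in hippocampus and 0.0927 to 1.38 FPKM in hypothalamus. Actb overlapped, at 1450 to 1583 FPKM and 1290 to 1663 FPKM. The 11 genes past 2-fold kept their separation and direction under each of the 17 alternatives run, but 3 of them fell short of 2-fold in some. In FPKM as deposited Fads6 stood at −0.85 and Mbtps2 at −0.83, and with upper-quartile scaling at −0.98 and −0.94, so that hippocampus was higher by 2-fold for 3 genes in place of 5. Mbtps2 also stood at −0.94 with a pseudocount of 5, and Slc25a1 at 0.98 without hippocampus replicate 4.

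**Figure D5:**
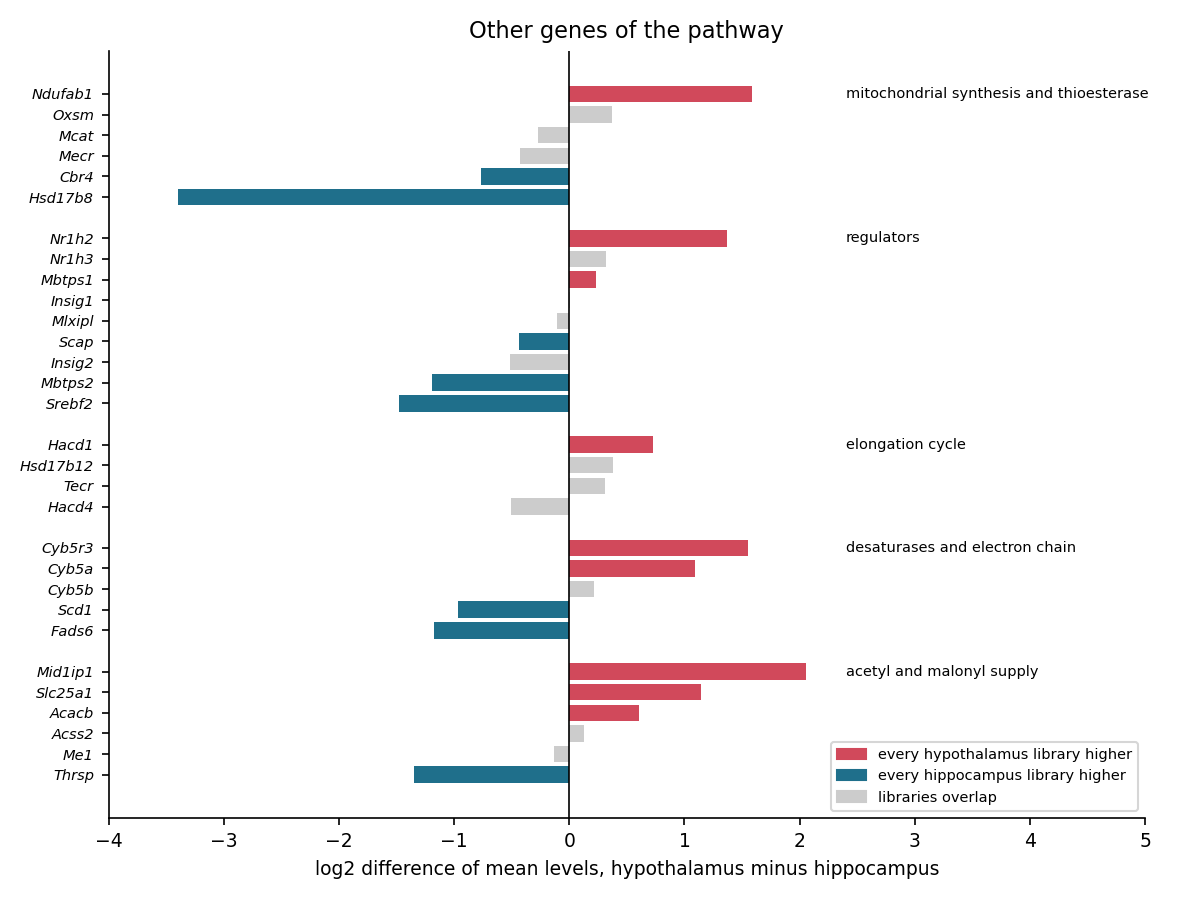
Log2 difference of mean rescaled levels, hypothalamus minus hippocampus, for the 30 other pathway genes compared, grouped by role, with colour where the tissues did not overlap and grey where they did. Bars of both colours occur in 4 of the 5 groups, from Hsd17b8 at −3.39 to Mid1ip1 at 2.05.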

How the data were processed

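RNA of 4 hippocampus and 3 hypothalamus libraries was deposited as 1 table of FPKM per tissue. The submitters' processing notes name TopHat, TopHat2, Bowtie, Bowtie2, Cufflinks, Cuffdiff and build rn5, with no settings, annotation or strand mode. Per the file headers, values are listed by locus and each deposited FPKM has a status. Where any library's status was not OK, the locus was dropped (86 in hippocampus, 24 in hypothalamus). A symbol's locus with the highest mean was used, and the sum over loci was the check. Symbols were matched through a RefSeq gene table of GRCr8, whose build differs from that of the files, so its gene coordinates are not printed and those given belong to the RefSeq promoter windows.

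From the deposited FPKM, levels, within-library ratios and rescaled differences were computed with Python 3.11.15 and pandas 2.3.3. The members, lists, ratios and settings were chosen with earlier results of these data known. Named genes were the members, list genes past 2-fold and the 3 most abundant list genes of each tissue. Marker genes stand beside results, and 1 oligodendrocyte marker is not reported here. Alternatives were other scalings, summed loci, any status, pseudocounts of 0.1 and 5, other filters and left-out replicates. Depth is unknown, so no counting interval was made.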

Additional observations from a re-analysis of the deposited data

Results flagged for a closer look

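Dixon's ratio sets the distance of an extreme library from its neighbour against the full spread of the group. It was computed for 32 results in hippocampus, where 1 passed the 95% critical value for 4 libraries and chance, at about 1 in 20 groups, gives 1.6. That result was the second Scd locus, with a ratio of 0.982. Replicate 4 read 901 FPKM there, and replicates 1 to 3 read 3.64, 20.2 and 4.80 FPKM. The higher Scd locus of the same library read 1387 FPKM, the highest of the 4.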

How the results depend on the processing

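The count of 3 separated members ranged from 3 to 5 when each replicate was left out. It was 5 of 8 without hypothalamus replicate 1, where 66.2% of all symbols were separated, and 5 of 8 without replicate 1 of both tissues, where 74.0% were, with Scd and Elovl4 added as higher in hippocampus. It was 4 of 8 without hippocampus replicate 4 or without hypothalamus replicate 3, with Elovl5 added, where 58.1% and 58.0% of all symbols were separated. In FPKM as deposited, 1 of 8 members, Acaca, passed 2-fold, at 1.06 on the log2 scale, beside 25.6% of all symbols. With fewer libraries fewer have to be apart, and the cause was otherwise not tested. Acaca, Fasn and Fads2 were higher in every hypothalamus library under all 17 alternatives, between 0.73 and 1.06, 0.40 and 0.74, and 0.27 and 0.66. The share of all symbols higher in every hypothalamus library was 35.2% as deposited, 29.4% with upper-quartile scaling and 33.2% without replicate 1 of both tissues. Without a minimum FPKM the count was 4 of 9, through Elovl6, whose values are at the floor, beside 39.6% of 15805 symbols. As deposited, the median of all symbols moved from −0.05 to 0.21. Among symbols with a single locus, a set chosen after seeing the data, 3 of 7 members and 52.8% of symbols were separated. No paired analysis was possible because the labels do not tie replicate numbers to animals across the tissues. Without counts, the precision of single low values is not known.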
